A study of Mus musculus with 12 samples.

Results

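Translation initiation and elongation factors were described in flow-sorted mouse round spermatids, the haploid germ cells that follow meiosis. The genes were taken by symbol from the deposited FPKM table. FPKM is a read level scaled for transcript length and library size. Symbols that begin with Eif1 to Eif6, Eef1 or Eef2 were kept, and symbols marked as pseudogenes with -ps were left out. The rule matched 71 symbols and kept 65 genes of the 28643 in the table, and all 65 were annotated as protein-coding. It also took in the eIF2 kinases (Eif2ak genes) and the eIF4E-binding proteins (Eif4ebp genes), which act on the factors.

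The study asked how loss of IGF2BP3, a protein that binds m6A-modified mRNA, alters mRNA levels and translation in these cells. The 8-week-old male mice were either heterozygous (Igf2bp3+/-, the control, named WT in the table) or homozygous (Igf2bp3-/-) for a frameshift mutation that Cas9 had introduced into Igf2bp3. Controls therefore carried 1 mutant allele, and the Igf2bp3-/- males were chosen for impaired fertility. All cells were kept in cycloheximide, which stops elongating ribosomes, throughout sorting. Part of each extract gave total RNA (RNA-seq), and the rest was run on a sucrose gradient to collect mRNAs bound by 4 or more ribosomes (RNC-seq). With 3 libraries for each genotype and assay there were 12 libraries. According to the study's methods the replicates were biological and cells were sorted mouse by mouse, but the labels tie no replicate number to an animal. The p-values measure the spread between these samples.

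Translation of a cellular mRNA starts when eIF4F binds the cap. Within eIF4F, eIF4E holds the cap, eIF4G is the scaffold and eIF4A is the helicase that unwinds the leader. eIF2 brings the initiator tRNA to the small subunit, eIF2B recharges eIF2 with GTP, and the eIF2 kinases block that recharging under stress. The multi-subunit eIF3 holds the small subunit and the mRNA together, eIF1, eIF1A and eIF5 select the start codon, and eIF5B joins the large subunit. During elongation eEF1A delivers aminoacyl-tRNAs, eEF1B recharges it, eEF2 moves the ribosome along and eIF5A relieves stalls. In spermatids many mRNAs are made early and held out of polysomes until later in differentiation, so the level and the polysome share of an mRNA need not go together.

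Many mRNAs of the translation machinery begin with a 5′ terminal oligopyrimidine (TOP) tract, a C at the start followed by a run of C and T. The starts of 9 members are shown for that reason, from the RefSeq promoter table (GRCm38.p6), with 10 bases before the annotated start and the 20 transcribed bases from it. Capitals mark a C followed by at least 5 bases that are C or T, where that C lies between 5 bases before and 10 bases after the start. The first 6 sequences hold such a run: 3 known TOP mRNAs, the scaffold Eif4g1 and both copies of the eIF2 gamma subunit. The last 3, from members at the ends of the polysome results, do not, although Eef1b2 is also a known TOP mRNA.
Eef1a1, chr9:78481705-78481734, minus strand: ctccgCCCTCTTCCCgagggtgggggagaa
Eif3f, chr7:108934405-108934434, plus strand: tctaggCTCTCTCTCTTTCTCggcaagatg
Eif4b, chr15:102073763-102073792, plus strand: tcccgtcggacgccgcgccaCCCCCTCgcg
Eif4g1, chr16:20672717-20672746, plus strand: gcgcagctccgCCCTCTgcgccggtcacgt
Eif2s3x, chrX:94212632-94212661, minus strand: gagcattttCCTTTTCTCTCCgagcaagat
Eif2s3y, chrY:1010585-1010614, plus strand: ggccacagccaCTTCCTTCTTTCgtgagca
Eef1b2, chr1:63176821-63176850, plus strand: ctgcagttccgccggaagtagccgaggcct
Eif5b, chr1:37998000-37998029, plus strand: ctgggttcccacctggccggcggctctact
Eif3a, chr19:60790674-60790703, minus strand: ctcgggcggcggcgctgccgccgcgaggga
The promoter table held 51 of the 65 members, and 11 of them (21.6%) had a run, beside 16.1% of the 27025 genes in the table. The run of Eif3f was the longest of those printed. Both the X-linked Eif2s3x and the Y-linked Eif2s3y had one.

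Over 11389 genes with a mean above 1 FPKM in both assays, log2 values correlated across the libraries of an assay with r from 0.975 to 0.991 in RNA-seq and from 0.944 to 0.986 in RNC-seq. Each library listed between 21490 and 25633 genes above 0. The depth is unknown because the table holds no counts. Igf2bp3 itself was listed at 33.4 to 38.6 FPKM in the Igf2bp3+/- RNA-seq libraries and at 31.4 to 32.5 in the Igf2bp3-/- ones, and a frameshift allele can still be transcribed, so its level does not check the labels. The 7 round spermatid markers summed to between 3508 and 11714 FPKM, and the 5 spermatocyte markers to at most 198 FPKM. In Igf2bp3+/- RNA-seq most of the former sum was Tnp1 and Prm1, with means of 1144 and 2677 FPKM. The rest of that list averaged from 63.4 (Catsper3) to 201 (Acr) there, and the highest spermatocyte marker, Sycp3, 36.7. The 5 elongating spermatid markers summed to 6524 to 7778 FPKM in RNA-seq, and in RNC-seq to 6547 to 7759 in Igf2bp3+/- and 7565 to 11769 in Igf2bp3-/-. The 7 Leydig cell markers summed to 15.4 to 22.6 FPKM in Igf2bp3+/- and 48.6 to 55.0 in Igf2bp3-/- RNA-seq, and to 6.75 to 14.3 and 51.5 to 103 in RNC-seq. Sertoli, peritubular and blood cell markers summed to at most 33.9 FPKM for a list, and these sums were also higher in every Igf2bp3-/- library of each assay. In RNA-seq the higher peritubular sum rested on Dcn, which averaged 0.871 FPKM in Igf2bp3+/- and 3.88 in Igf2bp3-/- RNA-seq. Of the smooth muscle markers on that list, Tagln and Myh11 averaged 0.460 and 0.221 FPKM in Igf2bp3+/- and 0.0985 and 0.161 in Igf2bp3-/-. Acta2 went the other way, at 0.606 FPKM in Igf2bp3+/- and 0.677 in Igf2bp3-/- RNA-seq. No marker on these lists was at 0 in all libraries, and the part of other cell types in the genotype differences below was not tested.

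The 3 most abundant members per length were elongation factors, and the order of the first 10 by mean RNA-seq FPKM was Eef1a1, Eef2, Eef1d, Eif5a, Eif1, Eif3g, Eef1g, Eif5, Eif3c and Eif4e. Eef1a1, the tRNA-delivering factor, was at 423, 484 and 467 FPKM in the Igf2bp3+/- RNA-seq libraries and 513, 541 and 499 in the Igf2bp3-/- ones. Eef2, the translocase, was at 361, 415 and 472 and 386, 430.3 and 387. These values overlapped, so the order of the leading pair was within the spread between libraries. Eef1d, at 279 to 343 FPKM, lay below Eef2 in every library and overlapped with Eif5a, at 242 to 309.9. Eef1g at 147 to 185, Eif5 at 122 to 153, Eif3c at 109 to 123 and Eif4e at 96.8 to 135 formed a lower group whose ranges met. Eef1a1 and Eef1g have 7 and 3 near-identical copies in the genome, so their values are uncertain where reads were shared.

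**Figure D1:**
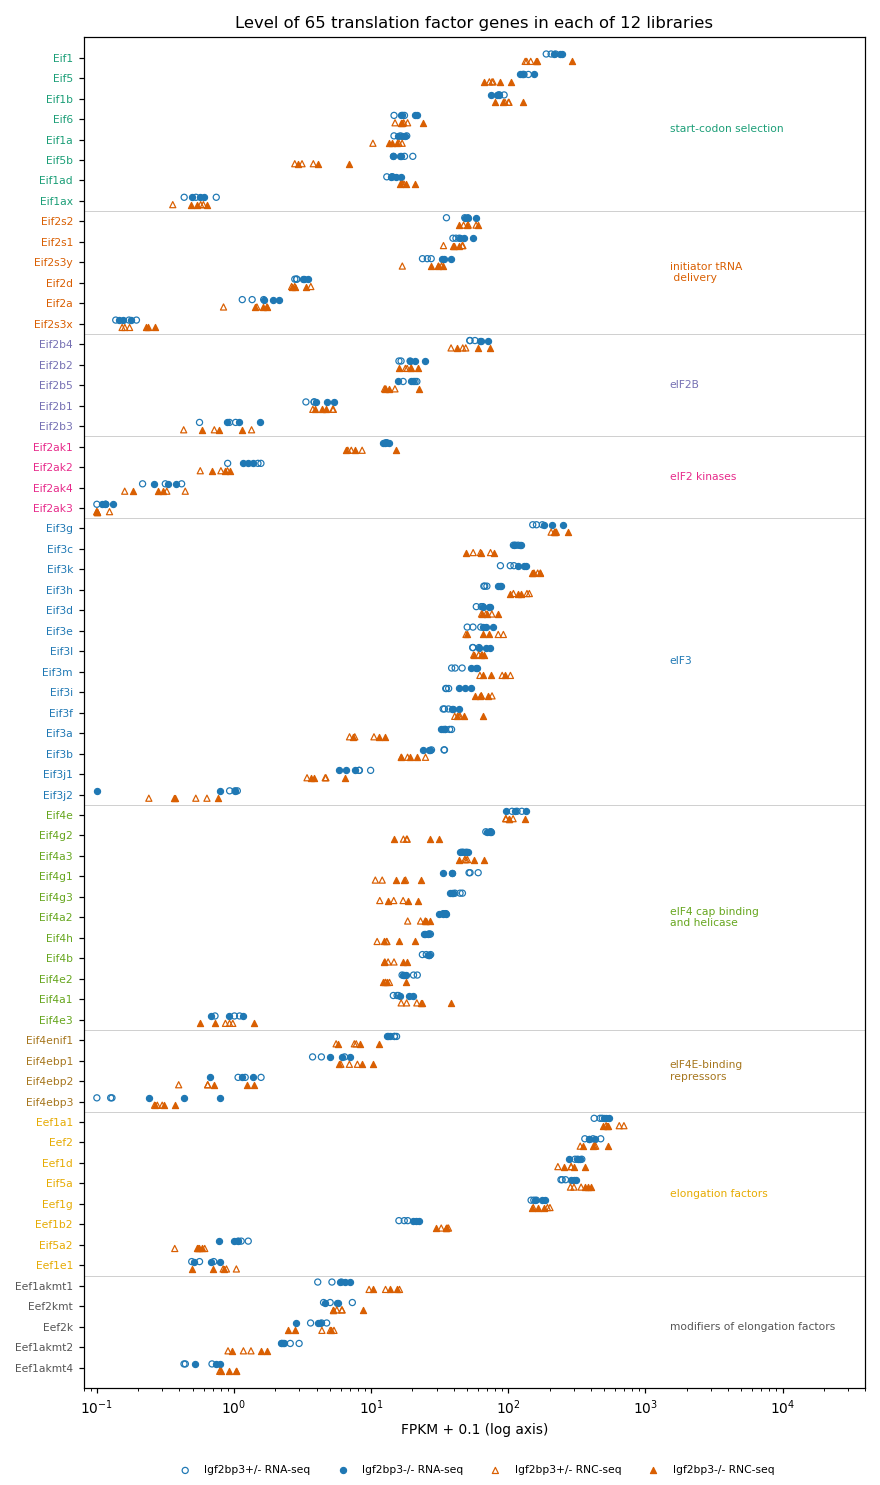
FPKM + 0.1 (log axis) of all 65 members in each of the 12 libraries, grouped by role and ordered by mean RNA-seq FPKM. Circles are RNA-seq and triangles RNC-seq libraries, open for Igf2bp3+/- and filled for Igf2bp3-/-. Eef1a1 and Eef2 lie farthest right, and the RNC-seq triangles of Eif5b, Eif3a, Eif4g1, Eif4g2 and Eif4g3 lie left of their RNA-seq circles.

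By summed FPKM, the 14 eIF3 genes ranged over 790.3 to 1030 in RNA-seq and 905 to 1101 in RNC-seq, and the 11 genes of cap binding and helicase activity (the eIF4 group) over 410.2 to 457 and 261 to 385. The eIF4 group was thus lower in every RNC-seq than in every RNA-seq library, while the ranges of eIF3 overlapped. The members together summed to 3591, 3690 and 3632 FPKM in the Igf2bp3+/- RNA-seq libraries and 3733, 4038 and 4046 in the Igf2bp3-/- ones. The genotypes did not overlap, with means of 3638 ± 49.7 and 3939 ± 179 (SD, n = 3), a rise of 8.28% at an exact permutation p of 0.1, which is the smallest that 3 against 3 allows. After scaling each library to the same total the difference was 2.73% (exact permutation p = 0.2). In RNC-seq the sums were 3710 ± 227 and 3886 ± 340 (exact permutation p = 0.5, n = 3). Without the first Igf2bp3-/- RNC-seq library, at 4237 FPKM, the RNC-seq difference fell from 177 to 1.08 FPKM. It was 57.8 without the second and 284 without the third Igf2bp3+/- RNC-seq library, and 341 without the third Igf2bp3-/- one. The members held 0.767% to 0.811% of all FPKM in RNA-seq and 0.570% to 0.696% in RNC-seq.

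Paralogs stood at unequal levels. The gamma subunit of eIF2 came from the Y-linked Eif2s3y, at 23.6 to 38.2 FPKM in RNA-seq, while the X-linked Eif2s3x was at 0.0373 to 0.0943. Eif2s3y therefore made up 99.7% to 99.9% of the pair in RNA-seq and 99.5% to 99.8% in RNC-seq. The autosomal Eif1a, at 14.6 to 18.1 FPKM, made up 96.6% to 97.8% of its pair with the X-linked Eif1ax, at 0.333 to 0.642. Both X-linked copies were thus under 1 FPKM in every library of both assays and genotypes.

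Among the other sets, Eif5a held at least 99.55% of its pair with Eif5a2, which was at 0.680 to 1.17 FPKM. The cap-binding protein Eif4e was at 96.8 to 135 FPKM, its relative Eif4e2, which can hold the cap without eIF4G, at 16.7 to 21.6, and Eif4e3 at 0.583 to 1.06. Of the eIF4A helicases, Eif4a3, which sits in the exon junction complex, was highest at 44.3 to 50.9 FPKM, followed by Eif4a2 at 30.9 to 35.1 and Eif4a1 at 14.4 to 20.05. These RNA-seq ranges did not overlap, although Eif4a1 and Eif4a3 each have 3 near-identical copies. Eif4g2, which binds no eIF4E and serves cap-independent initiation, was the highest eIF4G gene at 68.5 to 74.6 FPKM. Eif1 exceeded its close relative Eif1b, at 189 to 246 against 74.98 to 93.1 FPKM. The set of eIF2 kinases was led by the heme-regulated Eif2ak1 at 12.1 to 13.4 FPKM, while the RNA-sensing Eif2ak2 was at 0.799 to 1.47, the amino-acid sensor Eif2ak4 at 0.115 to 0.315 and the endoplasmic reticulum kinase Eif2ak3 at 0 to 0.0307. The symbols Eif4e1b and Eef1a2 were not in the FPKM table, so these genes were not analysed here.

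Polysome loading was the log2 difference of RNC-seq minus RNA-seq within a genotype, on the log2(FPKM + 0.1) scale. FPKM is relative to each library, so loading says whether a gene takes a larger or smaller share of polysomal than of total RNA, and in bulk samples fewer cells of a type and less RNA per cell cannot be told apart. The single gene CT010467.1 held 9.22% to 13.3% of all FPKM in Igf2bp3+/- RNA-seq and 15.9% to 19.4% in RNC-seq, and 5.68% to 9.25% and 8.14% to 14.6% in Igf2bp3-/-, and its part in the loading values was not tested. In Igf2bp3+/-, 10 of 63 tested members (15.9%) were higher and 21 (33.3%) lower in polysomal RNA at a limma adjusted p under 0.05, beside 18.6% higher and 25.2% lower of all 18414 genes tested. In Igf2bp3-/-, 6 members (9.52%) were higher and 12 (19.0%) lower, beside 12.5% and 14.0% of all genes. The median loading of the members was -0.010 and -0.16 in the respective genotypes, and that of all genes was -0.10 and -0.036. With libraries centred on their medians, the median of all genes shifted by 0.17 in Igf2bp3+/-. The members there split into 20 higher and 18 lower, beside 4725 and 3621 of the 18414 genes. Quantile normalization gave 12 higher and 21 lower members in Igf2bp3+/-, beside 4323 and 4090 genes. In Igf2bp3-/- it gave 4 higher and 14 lower members, beside 2639 and 2728 genes. In the latter genotype the count of members also moved when a single library was left out, from 10 to 22 in all. Of the 31 calls in Igf2bp3+/-, 22 held under every alternative processing tried, including the removal of each library, and of the 18 in Igf2bp3-/-, 10 did.

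In both genotypes 12 members (19.0%) were called lower, beside 12.7% of all genes, and 4 members (6.35%) higher, beside 10.7%. The 12 were Eif5 and Eif5b of start-codon selection and subunit joining, Eif3a and Eif3c of eIF3, Eif4b, Eif4g1, Eif4g2, Eif4g3 and Eif4h of the eIF4 group, the eIF4E transporter Eif4enif1, Eif5a2 and the methyltransferase Eef1akmt2. The 4 were Eif3h, Eif3i, Eef1b2 and the methyltransferase Eef1akmt1. In Igf2bp3-/- the calls of Eif3h, Eif3i, Eif4enif1, Eif4h, Eif5a2 and Eef1akmt2 were lost under some alternatives. So were those of Eif4a1 and Eif5a, which as deposited only this genotype had. A call in 1 genotype and not in the other is no difference between them, and the test of that difference, given as TE further on, passed for no member.

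**Figure D2:**
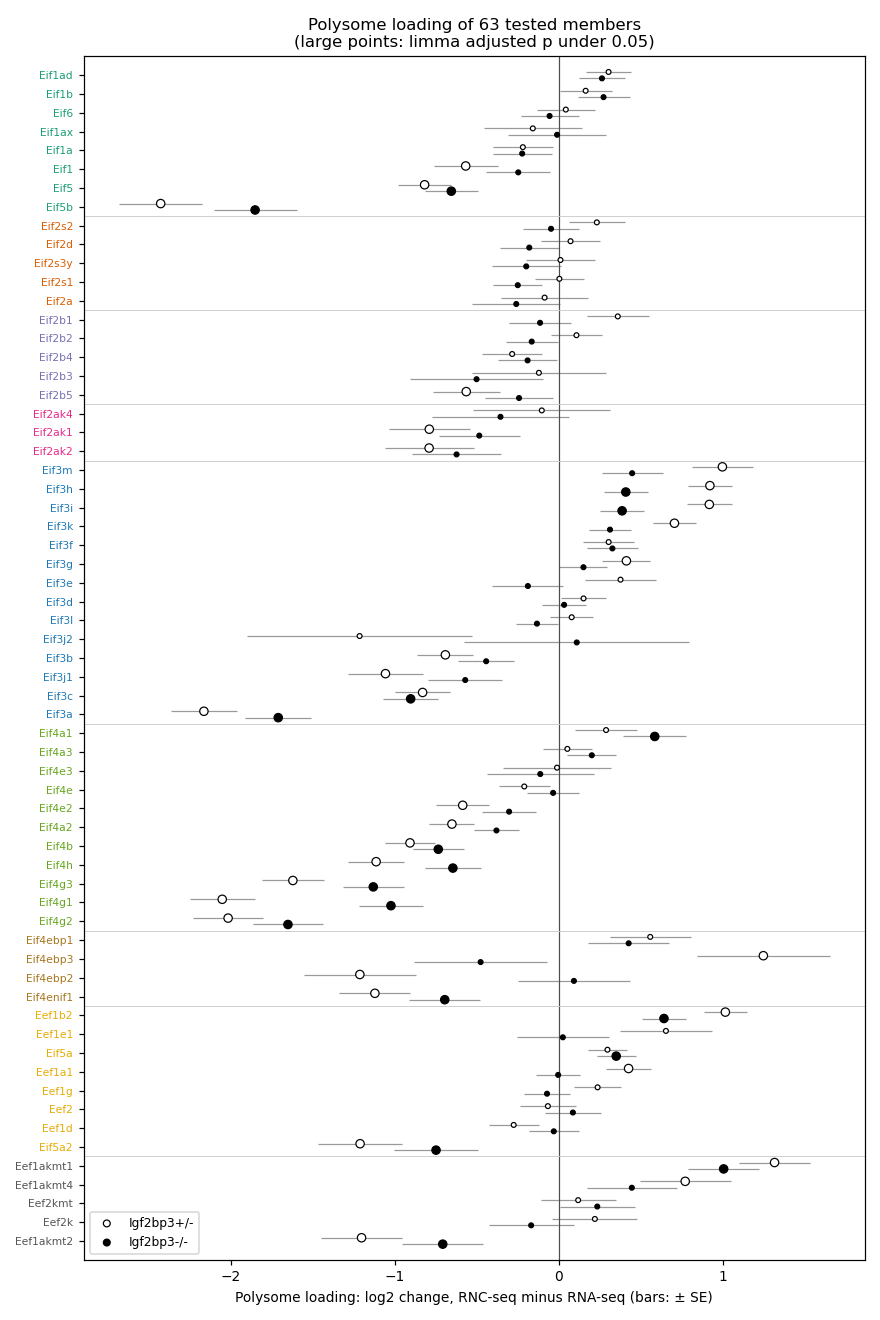
Polysome loading (log2, RNC-seq minus RNA-seq) of the 63 tested members by role, with bars of ± SE from the limma fit. Open circles are Igf2bp3+/- and filled circles Igf2bp3-/-, large where the adjusted p was under 0.05. Eif5b reaches -2.43 and Eef1akmt1 1.32 in Igf2bp3+/-, at opposite ends of the plot.

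The lowest loading was that of Eif5b (GRCm38, GENCODE M21, chr1:37998010-38055579, plus strand), the GTPase that joins the ribosomal subunits. It was at 20.02, 17.4 and 14.5 FPKM in Igf2bp3+/- RNA-seq and 2.67, 3.03 and 3.69 in RNC-seq. In Igf2bp3-/- it was at 16.3, 14.3 and 16.3 in RNA-seq and 6.74, 3.98 and 2.85 in RNC-seq. Every RNC-seq library was below every RNA-seq library, and the loading was -2.43 ± 0.25 (SE, limma adjusted p = 1.62e-05) in Igf2bp3+/- and -1.85 ± 0.25 (adjusted p = 0.000316) in Igf2bp3-/-. The spread among the Igf2bp3-/- RNC-seq libraries was wide, with the first library the highest. Eif5b shares 16.9% of its exon bases with a gene on the opposite strand, Rev1, and the use of strand in the counting is not given in the sources used here.

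The eIF4G scaffolds were low in polysomal RNA as a family, with all 3 genes called in both genotypes. Eif4g1 (chr16:20668313-20692884, plus strand), the main scaffold, fell from 52.5, 51.6 and 60.2 FPKM in Igf2bp3+/- RNA-seq to 11.9, 10.6 and 17.7 in RNC-seq. Eif4g2 (chr7:111067750-111083030, minus strand) fell from 68.5, 73.9 and 74.5 to 17.1, 18.2 and 18.1. Eif4g3 (chr4:137993022-138208508, plus strand) fell from 40.8, 44.4 and 46.2 to 14.5, 11.5 and 17.01. In each case the assays did not overlap, and the loadings were -2.05 ± 0.20, -2.02 ± 0.21 and -1.62 ± 0.19 (SE), with adjusted p of 9.71e-06, 1.69e-05 and 2.95e-05. In Igf2bp3-/-, Eif4g1 was at 38.6, 38.7 and 33.5 FPKM in RNA-seq and 17.2, 22.8 and 15.03 in RNC-seq. Eif4g2 was at 72.9, 70.2 and 74.6 and 26.7, 31.2 and 14.6. Eif4g3 was at 39.7, 38.6 and 37.3 and 18.6, 21.9 and 13.2. Again every RNC-seq library was below every RNA-seq library. The loadings there were -1.02 ± 0.20, -1.65 ± 0.21 and -1.13 ± 0.19, and all passed the test (adjusted p = 0.00240, 0.00022 and 0.000973). Within the set of 3, Eif4g1 held 30.4% to 33.3% of the summed FPKM in Igf2bp3+/- RNA-seq and 23.0% to 26.3% in Igf2bp3-/-, and 26.4% to 35.05% over all RNC-seq libraries.

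Across the 11 genes of the eIF4 group, 7 were called lower and 0 higher in Igf2bp3+/- as deposited, and 7 and 1 with centred libraries. The helicase cofactors Eif4h and Eif4b had loadings of -1.11 ± 0.17 and -0.91 ± 0.16 (SE, adjusted p = 0.000219 and 0.000453), and Eif4a2 had -0.65 ± 0.14 (adjusted p = 0.00189). Eif4e did not pass, at -0.21 ± 0.16 in Igf2bp3+/- and -0.034 ± 0.16 in Igf2bp3-/-. In Igf2bp3-/-, 5 of the 11 were lower and Eif4a1 was higher, at 0.59 ± 0.19 (adjusted p = 0.0368), a call that was lost under 7 of 17 alternatives.

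**Figure D3:**
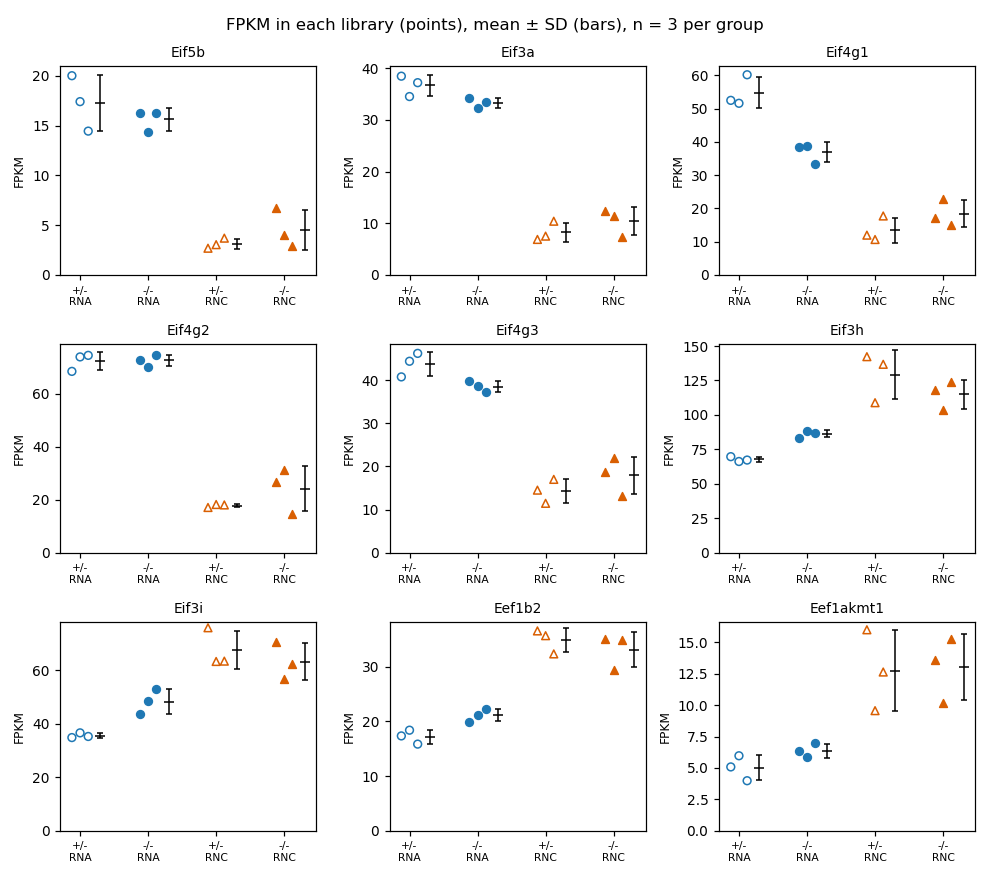
FPKM of 9 members in each library, with mean ± SD for the 3 libraries of a group, for the 5 lowest and the 4 highest loadings called in both genotypes. Circles are RNA-seq and triangles RNC-seq, open for Igf2bp3+/- and filled for Igf2bp3-/-. Eif4g1 lies at 52.5, 51.6 and 60.2 in Igf2bp3+/- RNA-seq, above the 38.6, 38.7 and 33.5 of Igf2bp3-/-, and Eef1b2 lies higher in RNC-seq than in RNA-seq in both genotypes.

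The subunits of eIF3 were split. Eif3a (chr19:60761117-60790658, minus strand), the largest subunit and a scaffold of the complex, went from 38.5, 34.5 and 37.2 FPKM in Igf2bp3+/- RNA-seq to 6.86, 7.496 and 10.4 in RNC-seq, a loading of -2.16 ± 0.20 (SE, adjusted p = 7.49e-06). In Igf2bp3-/- it went from 34.2, 32.4 and 33.4 to 12.4, 11.3 and 7.31, a loading of -1.71 ± 0.20 (adjusted p = 0.00013). Eif3h (chr15:51786558-51865523, minus strand) moved the other way, from 69.7, 66.2 and 67.3 FPKM to 142, 109 and 137 in Igf2bp3+/- (0.92 ± 0.13, adjusted p = 0.000141). Its values in Igf2bp3-/- were 83.5, 88.6 and 86.8 and 118, 103 and 124 (0.41 ± 0.13, adjusted p = 0.0360). Eif3i (chr4:129591960-129600648, minus strand), a WD-repeat subunit, was at 34.9, 36.6 and 35.3 FPKM in Igf2bp3+/- RNA-seq and 76.004, 63.4 and 63.5 in RNC-seq (0.92 ± 0.14, adjusted p = 0.000166). In Igf2bp3-/- it was at 43.7, 48.4 and 52.98 and 70.6, 56.8 and 62.5, a loading of 0.39 ± 0.14 with an adjusted p of 0.04995, just under the limit. The Igf2bp3-/- calls of Eif3h and Eif3i were lost under 10 and 9 of 17 alternatives, including the removal of any library but the second Igf2bp3-/- RNC-seq library. Eif3h has 1 near-identical copy.

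Of the 14 eIF3 genes, 5 were called higher in Igf2bp3+/- (Eif3g, Eif3h, Eif3i, Eif3k and Eif3m) and 4 lower (Eif3a, Eif3b, Eif3c and Eif3j1). Of these 9 calls that of Eif3g was lost under 8 of 17 alternatives, and the others held under all. Eif3m, at 40.9, 45.95 and 38.5 FPKM in RNA-seq and 104, 61.98 and 90.1 in RNC-seq, had the highest value, 1.00 ± 0.19 (SE, adjusted p = 0.0008). In Igf2bp3-/- it was 0.45 ± 0.19 and did not pass (adjusted p = 0.0910). Eif3c, of the core that contacts the small subunit, was lower in both genotypes, at -0.83 ± 0.17 and -0.90 ± 0.17. Eif3d, Eif3e, Eif3f and Eif3l did not pass in either genotype. Without the loosely bound Eif3j1 and Eif3j2, the highest of 12 subunit mRNAs exceeded the lowest by 4.45 to 6.45 times in Igf2bp3+/- RNA-seq libraries and by 21.1 to 32.7 times in RNC-seq libraries. In Igf2bp3-/- the ratios were 6.88 to 10.4 and 19.1 to 30.02. The mRNAs of this complex were therefore less even in each RNC-seq than in any RNA-seq library. The ratios over the 5 eIF2B subunits, where Eif2b3 was lowest, overlapped between the assays at 49.6 to 114 in RNA-seq and 37.4 to 125 in RNC-seq.

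Among the elongation factors, Eef1b2 had the highest loading. Eef1b2 (chr1:63176825-63180486, plus strand), the nucleotide exchange subunit for eEF1A, was at 17.3, 18.4 and 15.8 FPKM in Igf2bp3+/- RNA-seq and 36.5, 35.7 and 32.3 in RNC-seq. In Igf2bp3-/- it was at 19.9, 21.2 and 22.2 and 35.03, 29.4 and 34.8. No library of the assays overlapped, and the loadings were 1.02 ± 0.13 and 0.64 ± 0.13 (SE, adjusted p = 7.07e-05 and 0.00355). As deposited, its partners in eEF1B did not pass in either genotype: Eef1d was at -0.27 ± 0.15 and -0.030 ± 0.15, and Eef1g at 0.24 ± 0.14 and -0.071 ± 0.14. With centred libraries 5 of the 8 elongation factors were called higher and 1 lower in Igf2bp3+/-, against 2 and 1 as deposited. Eef1a1 was higher in Igf2bp3+/-, at 0.43 ± 0.14 (adjusted p = 0.0206), a call lost under 6 of 17 alternatives, and was at -0.0034 ± 0.14 in Igf2bp3-/-. Eef2 was at -0.066 ± 0.17 and 0.087 ± 0.17 and did not pass. Eif5a was higher in Igf2bp3-/- (0.35 ± 0.12, adjusted p = 0.0437), a call lost under 10 of 17 alternatives, while its low-level paralog Eif5a2 was lower in both (-1.21 ± 0.25 and -0.75 ± 0.25).

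The enzymes that modify elongation factors were expressed at low levels, at most 7.19 FPKM in RNA-seq. Eef1akmt1 (chr14:57549597-57571612, minus strand), a lysine methyltransferase of eEF1A, had the highest loading of all members in both genotypes. It went from 5.08, 5.97 and 3.98 FPKM to 15.998, 9.56 and 12.6 in Igf2bp3+/-, and from 6.31, 5.83 and 6.95 to 13.6, 10.2 and 15.3 in Igf2bp3-/-. The loadings were 1.32 ± 0.22 and 1.01 ± 0.22 (SE, adjusted p = 0.000363 and 0.00474). Eef1akmt2, which methylates another lysine of eEF1A, lay at the other end with -1.20 ± 0.25 and -0.71 ± 0.25. Eef1akmt4 was higher in Igf2bp3+/- (0.77 ± 0.28, adjusted p = 0.0361), at levels under 1 FPKM. That call was lost under 7 of 16 alternatives, and Eef1akmt4 shares 30.7% of its exon bases with Gm49333 on the same strand. Eef2k, the kinase that inactivates eEF2, and Eef2kmt, which methylates eEF2, did not pass in either genotype.

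As deposited, no gene of initiator tRNA delivery was called. With centred libraries Eif2s2 was called higher in Igf2bp3+/-, at 0.40. The loadings of the 5 tested ran from -0.086 (Eif2a) to 0.23 (Eif2s2) in Igf2bp3+/-. The 3 eIF2 subunits that were expressed, Eif2s1, Eif2s2 and Eif2s3y, were at 33.6 to 46.6, 43.8 to 60.2 and 16.8 to 33.04 FPKM in RNC-seq. Of the 5 eIF2B subunits, which recharge eIF2, only the catalytic Eif2b5 was called as deposited, lower at -0.56 ± 0.21 (SE, adjusted p = 0.0385) in Igf2bp3+/-, and it did not pass in Igf2bp3-/- (-0.24 ± 0.21, adjusted p = 0.416). With centred libraries and after quantile normalization Eif2b5 was not called in Igf2bp3+/-, and Eif2b1 was called higher instead, at 0.53 and 0.50. The kinases Eif2ak1 and Eif2ak2 were lower in Igf2bp3+/- (-0.79 ± 0.25 and -0.79 ± 0.27, adjusted p = 0.0187 and 0.0301). The calls of Eif2b5, Eif2ak1 and Eif2ak2 were lost under 9 of 17, 2 of 17 and 7 of 16 alternatives.

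Of the start-codon selection group, Eif5, the GTPase activator of eIF2, was lower in both genotypes (-0.82 ± 0.16 and -0.66 ± 0.16), and Eif1 was lower in Igf2bp3+/- (-0.57 ± 0.19, adjusted p = 0.0295), a call lost under 8 of 17 alternatives. Eif1a, Eif1ax and Eif1b did not pass in either genotype, nor did Eif1ad and Eif6, which were grouped here but do not select start codons. Among the eIF4E-binding repressors, Eif4enif1 was lower in both (-1.12 ± 0.22 and -0.70 ± 0.22). Eif4ebp2 was lower in Igf2bp3+/- (-1.21 ± 0.34) and Eif4ebp3 higher (1.25 ± 0.40), but neither exceeded 1.47 FPKM in any library. Eif4ebp3 shares 67.3% of its exon bases with another gene on its strand. The best expressed of the Eif4ebp genes, Eif4ebp1, was at 3.64 to 6.94 FPKM in RNA-seq and did not pass in either genotype (adjusted p = 0.0812 and 0.222).

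Loading went down with coding length, among the members as in the whole table. The longest annotated coding sequence was used for each gene (GENCODE M21). Spearman's rho over the 63 members was -0.39 in Igf2bp3+/- and -0.48 in Igf2bp3-/-, and over 12822 coding genes it was -0.54 and -0.52. These are descriptions across genes that share libraries, and genes are not independent replicates. The 10 members over 2400 bases had a median loading of -1.37 and -0.96, beside -0.94 and -0.59 for the 2617 coding genes of that length. The 10 members of up to 600 bases had medians of 0.23 and 0.059, beside 0.52 and 0.43. Eif5b (3648 bases), Eif3a (4032), Eif4g1 (4800) and Eif4g3 (5286) are among the long ones, whereas Eef1akmt1 (672), Eef1b2 (675), Eif3i (975) and Eif3h (1056) are short. Length did not order all members. Eef2, with 2574 coding bases, had the loadings near 0 given above, and the short Eif4h (744), Eef1akmt2 (732) and Eif5a2 (459) were all below -1 in Igf2bp3+/-.

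**Figure D4:**
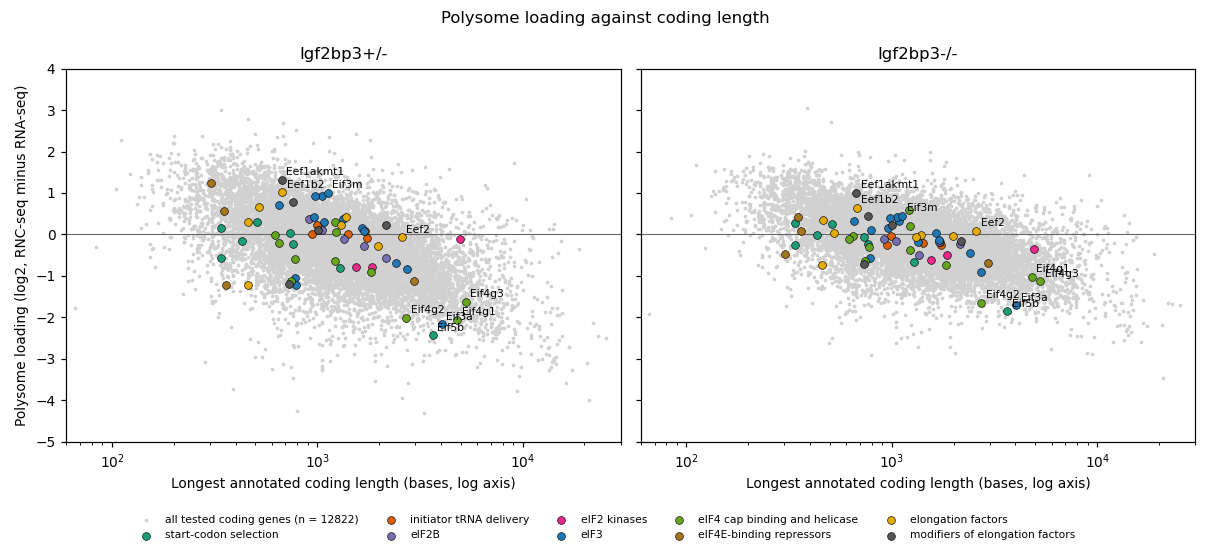
Polysome loading (log2, RNC-seq minus RNA-seq) against the longest annotated coding length in bases (log axis) in each genotype. Grey points are the 12822 coding genes tested and coloured points the 63 members by role. The members follow the downward slope of the grey cloud, with Eif5b lowest of them in both genotypes and the long Eef2 near 0.

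A list of 9 members known as TOP mRNAs from background knowledge (Eef1a1, Eef1b2, Eef1d, Eef1g, Eef2, Eif3e, Eif3f, Eif3h and Eif4b) had a median loading of 0.30 in Igf2bp3+/- and -0.0034 in Igf2bp3-/-, beside -0.095 and -0.18 for the 54 other members tested. In Igf2bp3+/- 3 of the 9 were called higher and 1 lower, beside 18.6% and 25.2% of all genes. In Igf2bp3-/- 2 were higher and 1 lower, beside 12.5% and 14.0%. With 9 genes these counts are not read as different from those shares. Of the list, 5 were in the promoter table, and 3 of them (Eef1a1, Eif3f and Eif4b, printed above) held a pyrimidine run near the start. The other listed mRNAs in the promoter table, Eef1b2 and Eef2, held none at their annotated starts. A missing run there therefore does not show that an mRNA lacks a TOP start. The runs at annotated starts did not sort the members by loading. The 10 tested members with a run had a median of -0.046 and -0.22, and the 39 in the promoter table without one had -0.086 and -0.17. Eif4g1, with a run, and Eif5b and Eif3a, without one, all had loadings below -2 in Igf2bp3+/-.

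Between the genotypes, 0 of 63 members passed in RNA-seq (limma adjusted p under 0.05), beside 0.197% of 20352 genes higher and 0.0590% lower in Igf2bp3-/-. Without adjustment (p under 0.05), 17 members (27.0%) had higher and 3 (4.76%) lower values, beside 10.4% and 5.32% of all genes. The libraries did not overlap for 20 members with higher values (31.7%) and 8 with lower values (12.7%), beside 14.1% and 8.68%. Under quantile normalization the unadjusted counts were 10 higher and 9 lower members, beside 1605 higher and 1430 lower of the 20352 genes. With centred libraries the unadjusted counts were 15 higher and 3 lower members, beside 2343 and 1043 genes. The split thus narrowed under quantile normalization but not with centring, among the members as over all genes.

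The smallest p was that of Eif4g1, at 52.5, 51.6 and 60.2 FPKM in Igf2bp3+/- and 38.6, 38.7 and 33.5 in Igf2bp3-/- RNA-seq. All Igf2bp3-/- values were below all controls, with a log2 difference of -0.57 ± 0.10 (SE, limma adjusted p = 0.102). Next among the lower values were Eif3j1, from 9.81, 8.11 and 8.06 to 7.51, 5.71 and 6.47 (-0.40 ± 0.14, adjusted p = 0.248), and Eif3b, from 27.4, 34.2 and 33.9 to 26.4, 26.6 and 23.98 (-0.30 ± 0.11, adjusted p = 0.260). Eif3j1 shares 19.0% of its exon bases with a gene on the opposite strand, Spg11.

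On the other side stood subunits of eIF3. Eif3m was at 40.9, 45.95 and 38.5 FPKM in Igf2bp3+/- and 53.5, 59.3 and 57.6 in Igf2bp3-/- RNA-seq (0.44 ± 0.10, adjusted p = 0.149). Eif3i and Eif3h, whose values are given above, differed by 0.44 ± 0.10 and 0.35 ± 0.077 (adjusted p = 0.152 and 0.152). The 3 genes did not overlap between the genotypes. Eif3m, like Eif3h, has 1 near-identical copy. The RNA-seq differences went down with coding length, with a Spearman's rho of -0.34 over 13690 coding genes and -0.20 over the 63 members. Coding genes over 2400 bases, the class of Eif4g1 and Eif3b, had a median of -0.098. Those over 600 and up to 1200 bases, the class of Eif3m, Eif3i and Eif3h but also of Eif3j1, had 0.13. The part of length in the values of these genes was not tested. Of all genes tested in RNA-seq, 56.2% had values above 0 as deposited. Of the 14 eIF3 genes, 10 had values above 0 as deposited and with centred libraries and 9 after quantile normalization, and none passed. All 5 tested genes of initiator tRNA delivery had values above 0 under each of these scalings, from 0.21 (Eif2d) to 0.47 (Eif2a) as deposited, and none passed. Among them the Y-linked Eif2s3y was at 27.3, 25.6 and 23.6 FPKM in Igf2bp3+/- and 33.8, 32.6 and 38.2 in Igf2bp3-/- (0.45 ± 0.10, adjusted p = 0.157), with no overlap. The summed Leydig, Sertoli and blood cell markers, and peritubular Dcn, were higher in the same libraries, as given above.

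In RNC-seq 0 of 64 members passed, beside 0.0787% of 19051 genes higher and 0.0367% lower. Without adjustment 2 had higher and 0 lower values, beside 5.36% and 1.12% of all genes. Libraries did not overlap for 5 members with higher values (7.81%) and 0 with lower, beside 9.44% and 1.85%. Eif4ebp2, a repressor of eIF4E, was at 0.295, 0.543 and 0.543 FPKM in Igf2bp3+/- and 1.30, 1.14 and 0.620 in Igf2bp3-/- (0.98 ± 0.37, SE, adjusted p = 0.740), all low levels. Eif4a1 was at 21.4, 16.4 and 18.04 and 38.3, 23.4 and 23.04 (0.56 ± 0.25, adjusted p = 0.756), and Eif1 at 133, 136 and 146 and 291, 161 and 160.3 (0.50 ± 0.24, adjusted p = 0.768). In both of the latter the first Igf2bp3-/- library was well above the others.

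The smallest p on the lower side in RNC-seq was that of Eef2k, at 4.27, 4.93 and 5.26 and 5.01, 2.36 and 2.67 FPKM (-0.59 ± 0.30, adjusted p = 0.780). Eef1e1, which despite its symbol is a scaffold of the multi-tRNA synthetase complex, followed at 0.940, 0.734 and 0.781 and 0.743, 0.395 and 0.604 (-0.46 ± 0.33). Eef1a1 was at 644, 516 and 697 and 493, 535 and 521 (-0.25 ± 0.19, adjusted p = 0.839). The genotypes overlapped for each of these. Eif4a1 and Eif5a were the 2 members (3.17%) whose Igf2bp3-/- libraries lay above all controls in both assays, beside 2.30% of all genes. For Eif5a the values were 242, 261 and 247 and 286, 302 and 309.9 FPKM in RNA-seq, and 339, 301 and 284 and 383, 400.0 and 362 in RNC-seq.

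**Figure D5:**
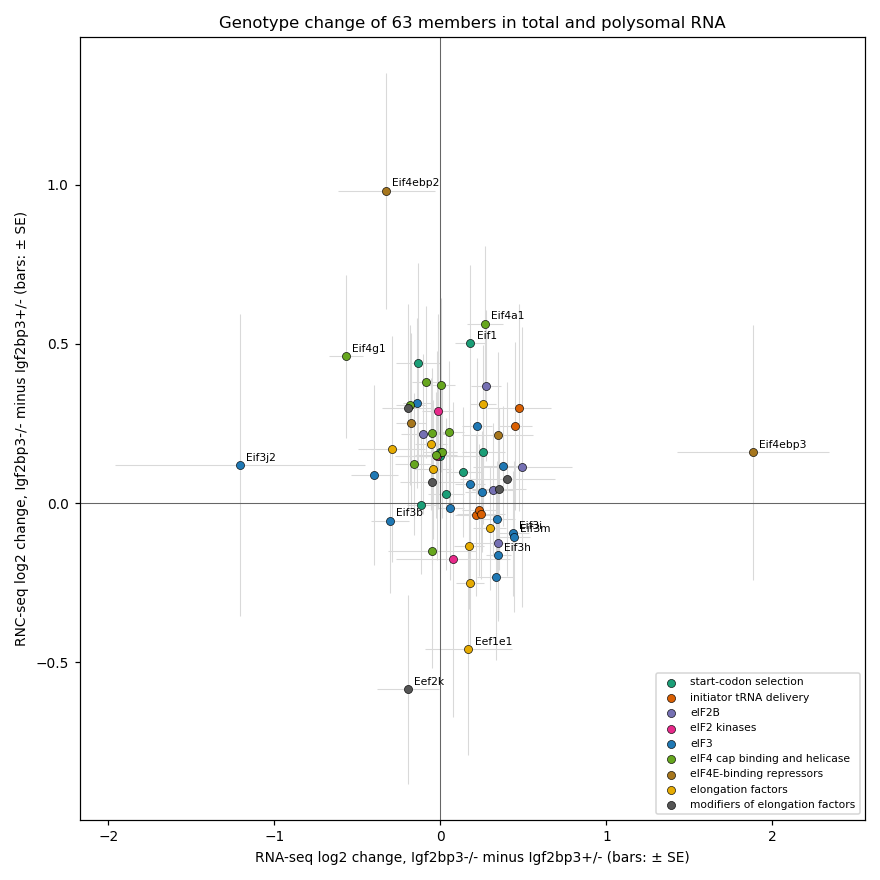
Log2 difference Igf2bp3-/- minus Igf2bp3+/- in RNA-seq (horizontal) and RNC-seq (vertical) for the 63 members tested in both, with bars of ± SE and colours by role. Eif4g1 lies at -0.57 and 0.46, and Eif4ebp3 and Eif3j2, both listed at 0 in a library, lie far out on the RNA-seq axis. None of the differences passed the test.

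The change in translation efficiency (TE) was the difference of the loadings, Igf2bp3-/- minus Igf2bp3+/-, tested as an interaction over the 12 libraries. It passed for 0 of 63 members, beside 0.00543% of 18414 genes higher and 0 lower. Without adjustment 2 members (3.17%) had higher and 4 (6.35%) lower values, beside 5.54% and 1.58% of all genes. Centring shifted the median of all genes by -0.13. It gave 2 higher and 12 lower members without adjustment, beside 492 higher and 1080 lower of the 18414 genes. Quantile normalization gave 2 and 8 members, beside 698 and 717 genes. TE is computed from the values already given and adds no separate evidence. Eif4g1 had a difference of 1.03 ± 0.28 (SE, limma adjusted p = 0.686), with the lower RNA-seq and higher RNC-seq values given above. Eif4ebp2 was at 1.31 ± 0.48 and Eif4h, at 10.96, 12.9 and 12.8 FPKM in Igf2bp3+/- and 20.8, 15.8 and 12.2 in Igf2bp3-/- RNC-seq, at 0.47 ± 0.24 (adjusted p = 0.686 and 0.712).

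On the lower side of TE were Eif4ebp3 (-1.72 ± 0.57), Eif3i (-0.53 ± 0.19) and Eif3h (-0.51 ± 0.19), each with an adjusted p of 0.686. Eif4ebp3 was at 0, 0.0288 and 0.0261 FPKM in Igf2bp3+/- and 0.686, 0.334 and 0.139 in Igf2bp3-/- RNA-seq, so its value rests on levels at or near 0. Over all genes tested, 55.6% of TE values were above 0 and 44.4% below it as deposited. By role, 10 of the 11 eIF4 genes, all but Eif4e3, had TE values above 0, from 0.15 (Eif4a3) to 1.03 (Eif4g1), and all 5 tested genes of initiator tRNA delivery had values below 0. Those counts were the same as deposited, with centred libraries and after quantile normalization, and no gene of either role passed. TE values rose with coding length, with a Spearman's rho of 0.32 over 12822 coding genes and 0.18 over the 63 members. Coding genes over 2400 bases had a median TE of 0.32, and those of up to 600 bases had -0.11. The 10 members in each of these classes had medians of 0.40 and 0.081. The part of length in the split by role was not tested.

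In 6 lists of other genes related to translation, 0 passed in RNA-seq, RNC-seq or TE. These were termination and recycling (8 tested in RNA-seq), the integrated stress response (7), mTOR and MNK signalling to cap binding (14), the poly(A) bridge (6), hypusine and diphthamide synthesis (9) and mitochondrial translation factors (8). The loading counts of these lists stand beside 18.6% of all genes called higher and 25.2% lower in Igf2bp3+/-, and 12.5% and 14.0% in Igf2bp3-/-. With 6 to 13 genes a list, counts of 1 or 2 are not read as different from those shares. In Igf2bp3+/- loading, 5 of 13 tested mTOR and MNK genes were lower and 1 higher, and in Igf2bp3-/- 3 were lower and 0 higher. Of the genes that form or regulate the bridge from the poly(A) tail to eIF4G, 2 of 6 were lower in each genotype and 0 higher. Pabpc1 was at 266 ± 8.19 FPKM in RNA-seq and 142 ± 15.1 in RNC-seq of Igf2bp3+/- (SD, n = 3). The most abundant on that list, Pabpc2, was at 658 ± 51.8 and 514 ± 81.3 in the same groups. Its loading passed in neither genotype (limma adjusted p = 0.0703 and 0.183). Of the 9 genes that make hypusine on eIF5A or diphthamide on eEF2, 4 were higher and 2 lower in Igf2bp3+/-, and 4 higher and 0 lower in Igf2bp3-/-. Dohh, which completes hypusine, was at 23.5 ± 0.134 FPKM in RNA-seq and 37.7 ± 4.11 in RNC-seq of Igf2bp3+/-, and Dph3 was at 18.2 ± 1.83 and 38.4 ± 3.33. Of the 2 lower genes, Dph1 was at 2.85 ± 0.524 and 1.52 ± 0.507 in these groups, and Dph7 at 1.40 ± 0.119 and 0.728 ± 0.233. Termination and recycling genes had 2 higher and 3 lower of 8 in Igf2bp3+/-, and 1 higher and 3 lower in Igf2bp3-/-. For the integrated stress response the counts were 0 higher and 2 lower of 6, then 0 and 1, and for mitochondrial factors 1 higher and 0 lower of 8, then 0 and 1.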

How the data were processed

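Per the labels and the study's methods, the authors trimmed reads with Trim Galore 0.6.6, aligned them with HISAT2 to GRCm38 (mm10) and computed the deposited FPKM with StringTie 2.1.7. The annotation release and the use of strand are not given in the sources used here. The labels name a directional poly(A) kit and the methods a full-length protocol on another sequencer. FPKM keeps no depth, so no counting interval is given.

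From the deposited FPKM, log2(FPKM + 0.1) was fitted with limma 3.58.1 (R 4.3.3; lmFit, eBayes with trend, two-sided) on every gene with a mean FPKM above 0.1, and p-values were adjusted by Benjamini-Hochberg over all of them with a limit of 0.05. RNA-seq and RNC-seq were fitted on 6 libraries each, and loading and TE on all 12. A pseudocount understates the change of low genes. The fit was tested on simulated data. Of 28668 symbols, 25 that had turned into dates, with 0.0995% of all FPKM, were left out. Summed FPKM was compared by exact two-sided permutation tests (scipy 1.17.1).

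Named members were, by rule, the 3 of smallest p in each direction of each genotype comparison, up to 5 in each direction with the largest loading called in both genotypes at 1 FPKM or more, the 10 most abundant, and fixed paralog sets. Others were named after their values were seen, to account for each role. The members and lists were chosen with earlier results of these data known. Near-identical copies (at least 95% identity over 50% of a transcript, BLAST 2.17.0) and exon overlaps came from GENCODE M21. Alternatives tried were other pseudocounts, filters and scalings, library weights, no trend, a replicate block, other sets of libraries in the fit, a fold limit and leaving out each library. Whether same-numbered libraries pair was checked from their deviations.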

Additional observations from a re-analysis of the deposited data

How the results depend on the processing

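For RNA-seq, RNC-seq and TE the count of members called was 0 under every alternative but one. A fold limit of 1.5 with no adjustment of p gave 1 member in RNA-seq, 1 in RNC-seq and 3 in TE. Over all genes it gave 594 higher and 515 lower in RNA-seq, 901 and 201 in RNC-seq, and 955 and 252 in TE. Leaving out each library in turn gave 0 members in each comparison. The count for Igf2bp3+/- loading, 31, ranged from 23 to 30 when a library was left out. For Igf2bp3-/- loading, 18, that range was 10 to 22. It was 11 without the first Igf2bp3-/- RNA-seq library, 10 without the second, and 10 (2 higher, 8 lower) in a fit over the 6 libraries of that genotype. That fit rests on fewer libraries. For the others the cause was not tested. With the replicate block the counts were 0, 0 and 0 for RNA-seq, RNC-seq and TE, 28 for Igf2bp3+/- loading and 14 for Igf2bp3-/- loading. The deviations of same-numbered libraries correlated between assays from -0.105 to 0.262 and between genotypes from -0.117 to 0.255, and no source used here ties a number to 1 animal, so the numbers were not taken to pair the samples.

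The differences in summed FPKM ranged from 248 to 404 in RNA-seq and from 1.08 to 341 in RNC-seq when a library was left out, a set of alternatives chosen after seeing the data. Without Eef1a1 they were 242 and 279. Of the loading calls, 22 of 31 in Igf2bp3+/- and 10 of 18 in Igf2bp3-/- held under every alternative. Those lost under at least 1 were Eef1a1, Eef1akmt4, Eif3g, Eif4ebp3, Eif1, Eif2ak1, Eif2ak2, Eif2b5 and Eif4ebp2 in Igf2bp3+/-, and Eif3h, Eif3i, Eif4a1, Eif5a, Eef1akmt2, Eif4enif1, Eif4h and Eif5a2 in Igf2bp3-/-. No called loading changed its sign under any alternative. Loadings that did not pass changed sign for 6 members in Igf2bp3+/- and 4 in Igf2bp3-/- with centred libraries, and for 7 and 5 after quantile normalization. Among them were Eif2a, Eef2, Eef1g and Eif5a in Igf2bp3+/-, and Eef1a1, Eef1d, Eif4e and Eef2 in Igf2bp3-/-. Low levels limit Eif2ak3, Eif2s3x, Eif3j2, Eif4ebp3 and the other members under 1 FPKM, and 3 libraries a group limit every test.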
